A study of Mus musculus with 20 samples.

Results

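The genes described here are 10 that mark resident macrophages, the macrophages that live in a tissue for long periods rather than passing through it: Adgre1, Mertk, Cd163, Spic, Cd5l, Siglec1, Mrc1, C1qa, C1qb and Retnla. They were taken by symbol from the 55486 genes counted in bone marrow and kidney, and every symbol matched 1 gene in both tissues. Each tissue was sequenced in 5 mice given vehicle and 5 given oxaliplatin, 20 libraries in all, and the comparison asks what repeated dosing with this platinum drug, which damages DNA, changed in each tissue. The methods describe C57BL/6 mice of both sexes, but RNA of 4 Y-linked genes was present in every library, at sums of 99.1 to 173 CPM (counts relative to the library size, scaled by the TMM method) in marrow and 77.5 to 110 CPM in kidney. The mice were aged 10 weeks at the start and were injected intraperitoneally over 8 weeks, either with the 5% dextrose vehicle or with oxaliplatin dissolved in it at a dose of 10 mg/kg. Marrow was taken from leg bones (tibia and femur) once 6 days had passed since dosing ended, and the collection of kidney is not described in the sources used here.

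Resident macrophages clear dying cells, scavenge hemoglobin and heme, and supply iron to developing red cells. In marrow they sit at the centre of the islands in which erythroblasts mature and around blood vessels. In kidney they lie between the tubules. The genes named above encode surface receptors, secreted proteins and 1 transcription factor of these cells, and no single one of them is made by every resident macrophage or by macrophages alone. RNA here came from whole tissue, so fewer cells of a type and less RNA per cell cannot be told apart.

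Depth was similar between the treatments within each tissue and lower in kidney, from 30660153 to 41140527 counts per library in marrow and from 24393007 to 30925430 in kidney. The tissue labels matched the RNA: 7 tubule and podocyte genes summed to between 17195 and 19896 CPM in the kidneys of vehicle mice and to between 7.15 and 11.6 CPM in their marrow. The 10 erythroid genes examined all fell in marrow with oxaliplatin, from a sum of between 9394 and 13284 CPM to one of between 1542 and 3210 CPM, and all 8 adipocyte genes rose, from between 179 and 276 CPM to between 954 and 3526 CPM. Because every value is a share of the library, changes this large in other cells move with every marrow result below, and their part in those results was not tested.

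In the marrow of vehicle mice the complement genes were the most abundant per length of transcript. C1qa stood at 120 ± 22.0 and C1qb at 105 ± 17.8 CPM per kilobase (SD, n = 5), and their ranges overlapped each other but no other member. Mrc1, Cd5l, Adgre1 and Mertk followed, between 31.2 and 19.7 CPM per kilobase on average, with each range overlapping its neighbour in that order. Siglec1, Cd163 and Spic formed a lower tier at 12.9, 12.6 and 8.38 CPM per kilobase, again with overlapping neighbours. Retnla was far below the rest at 1.18 ± 0.243 CPM per kilobase. In vehicle kidney the order was different: Mertk led at 18.1 ± 0.488 CPM per kilobase, followed by C1qb at 11.1 ± 1.14 and C1qa at 9.80 ± 0.641, then Adgre1 at 1.06 ± 0.274, and the other 6 genes averaged 0.285 or less.

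Between the vehicle groups, 9 of the 10 genes were lower in kidney than in marrow by edgeR's quasi-likelihood test, where a call needs more than 1.5-fold and a Benjamini-Hochberg adjusted p under 0.05. Of all genes tested, 72.9% were called between these tissues, with 34.6% higher and 38.3% lower in kidney. The log2 difference, kidney minus marrow, was -2.81 for C1qb, -3.18 for C1qa, -3.96 for Adgre1, -6.33 for Mrc1, -7.24 for Siglec1 and -7.35 for Cd163. Retnla had the smallest called difference, -2.20 (adjusted p = 0.01), on 0 to 6 counts per vehicle kidney. Spic and Cd5l had 0 to 2 counts in every vehicle kidney, under the floor of 3 counts, so no fold is given for them. Mertk was the exception, at 85.3 ± 2.68 CPM in marrow and 78.6 ± 2.11 CPM in kidney, each scaled within its own tissue. With both tissues scaled together, its log2 difference was 0.31 (SE 0.13, adjusted p = 0.027), higher in kidney but under 1.5-fold. It became -0.11 when library size alone was used for scaling, so no direction can be given. In kidney, 4 members (Cd163, Spic, Cd5l and Retnla) had too few counts to be tested for treatment.

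With oxaliplatin, 6 of the 10 genes changed in marrow: Retnla, Siglec1, Mrc1, C1qa and C1qb rose and Spic fell, by edgeR's quasi-likelihood test at an adjusted p under 0.05 and more than 1.5-fold. The same rule called 23.3% of the 22363 genes tested in marrow, with 11.6% higher and 11.8% lower. The median log2 fold change of the 10 genes was 0.76, beside -0.04 over all genes tested. In 5 of the 6 called genes the oxaliplatin and vehicle mice did not overlap, which was so for 24.9% of all genes tested. Adgre1, Mertk, Cd163 and Cd5l did not pass.

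**Figure D1:**
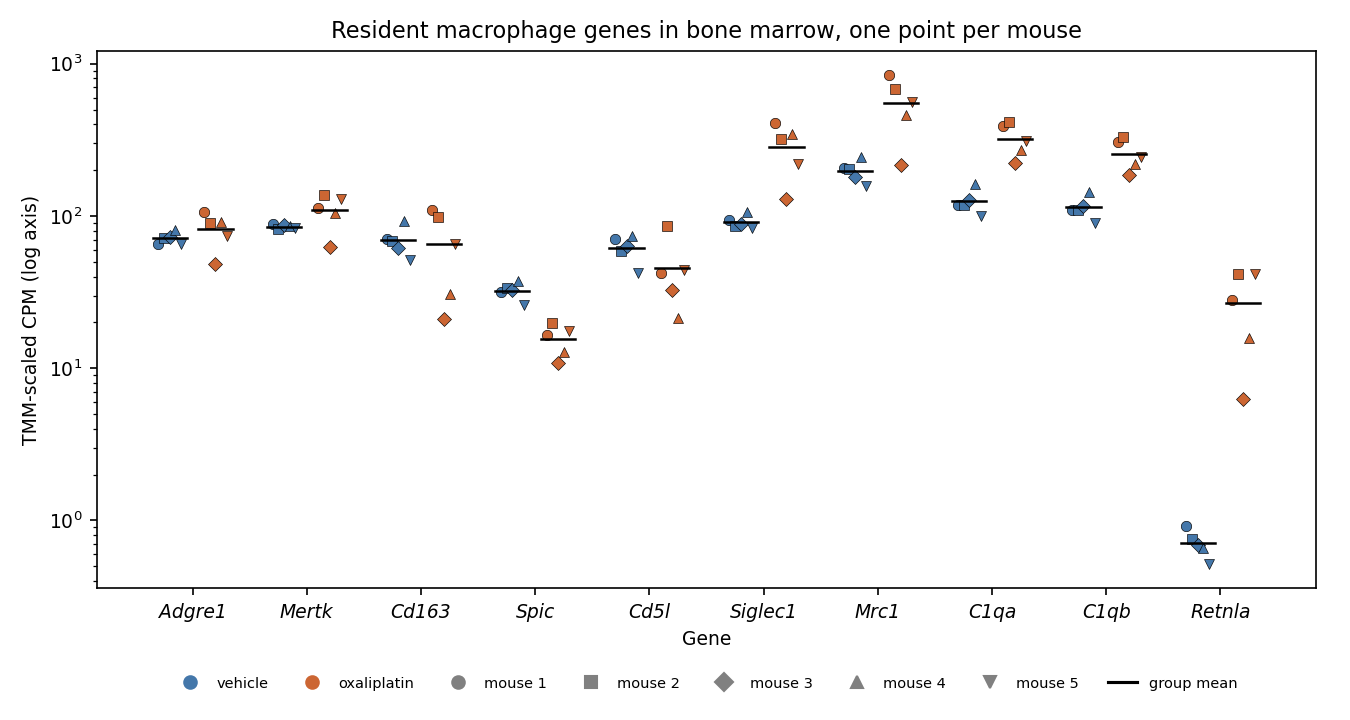
Level of each gene in bone marrow in TMM-scaled CPM on a log axis, 1 point per mouse with its shape giving the mouse number, blue for vehicle and orange for oxaliplatin, with black lines for group means (n = 5 per group). The Retnla groups lie furthest apart, at 0.520 to 0.918 CPM against 6.25 to 41.7 CPM, Spic is the only gene whose oxaliplatin mice all lie below the vehicle mice, and oxaliplatin mouse 3 (diamond) is the lowest of its group in 9 of the 10 genes.

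The largest rise was that of Retnla, which encodes RELM-alpha, a secreted protein made by macrophages exposed to interleukin 4 or interleukin 13 and also found in adipose tissue. It lies on the plus strand of chromosome 16 (GRCm38, chr16:48842551-48844461). The RefSeq promoter is shown because the factor STAT6 carries interleukin 4 signals to a palindrome in which TTC and GAA are 4 bases apart, and 1 match to it, in capitals, starts at position -145 from the RefSeq start site. The window is chr16:48842359-48842658 on the plus strand of GRCm38.p6.
Retnla: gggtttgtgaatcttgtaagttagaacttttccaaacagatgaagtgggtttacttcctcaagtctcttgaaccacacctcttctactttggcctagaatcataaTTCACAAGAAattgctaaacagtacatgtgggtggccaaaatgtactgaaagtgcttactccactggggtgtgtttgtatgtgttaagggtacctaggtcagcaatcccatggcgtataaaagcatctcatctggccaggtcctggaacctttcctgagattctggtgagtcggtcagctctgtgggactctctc
Such a match occurs in 6.95% of the 32851 mouse promoters of the same length and in 2 of the 7 member promoters at hand, those of Retnla and Cd5l. It describes the sequence and does not show a bound factor.

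Retnla was at 0.918, 0.757, 0.693, 0.656 and 0.520 CPM in vehicle mice 1 to 5, from 16 to 29 counts per library. In oxaliplatin mice 1 to 5 it was at 28.0, 41.4, 6.25, 15.8 and 41.7 CPM. The lowest treated mouse was thus several times above the highest vehicle mouse, while the treated mice also differed widely among themselves, with a coefficient of variation of 58.8% against 20.5% with vehicle. The log2 fold change was 5.22 (SE 0.52, adjusted p = 1.75e-05), or 37.4-fold. The adipocyte sums of oxaliplatin mice 1 to 5 were 3311, 1742, 3049, 3526 and 954 CPM. Those of vehicle mice were 179 to 276 CPM. The part of adipocyte RNA in the rise was not tested.

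Siglec1 encodes CD169, a receptor for sialic acid that marks the marrow macrophages of the erythroblastic islands. Vehicle mice 1 to 5 had 93.7, 86.4, 88.6, 107 and 83.5 CPM, and oxaliplatin mice 1 to 5 had 408, 322, 129, 345 and 219 CPM. Every treated mouse was above every vehicle mouse, with mouse 3 closest to them. The log2 fold change was 1.63 (SE 0.25, adjusted p = 2.97e-04), or 3.10-fold.

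Mrc1 encodes the mannose receptor CD206, which takes up glycoproteins that end in mannose. Its RefSeq promoter (chr2:14229164-14229463, plus strand, GRCm38.p6) is shown with that of C1qb below, because both genes rose and both windows hold the core of the box that PU.1, the factor required for macrophage development, binds. The core searched was GAGGAA on either strand, and its 3 matches, at positions -180, -167 and -35 from the start site, are in capitals.
Mrc1: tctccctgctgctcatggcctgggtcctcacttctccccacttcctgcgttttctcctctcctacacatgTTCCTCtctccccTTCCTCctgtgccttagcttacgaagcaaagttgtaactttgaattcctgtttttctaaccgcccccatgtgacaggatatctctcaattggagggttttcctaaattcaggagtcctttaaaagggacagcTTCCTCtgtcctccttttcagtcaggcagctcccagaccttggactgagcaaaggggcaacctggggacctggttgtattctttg
The core is common, in 28.3% of all promoters, and was found in 4 of the 7 member promoters: Mrc1, C1qb, Cd5l and Retnla.

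Vehicle mice 1 to 5 had 208, 203, 181, 243 and 158 CPM of Mrc1, and oxaliplatin mice 1 to 5 had 841, 682, 216, 458 and 558 CPM. Mouse 3 of the treated group fell within the vehicle range and the other 4 were above it, so the groups overlapped. The log2 fold change was 1.47 (SE 0.29, adjusted p = 0.00175), or 2.78-fold.

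C1qa and C1qb encode chains of C1q, the recognition unit of the classical complement pathway, which resident macrophages secrete. They and C1qc lie side by side on the minus strand of chromosome 4, C1qb at chr4:136880129-136886187, C1qc at chr4:136889804-136893065 and C1qa at chr4:136895917-136898803 (GRCm38). The RefSeq promoter of C1qb (chr4:136886151-136886450, minus strand) has its PU box core, in capitals, at position -30.
C1qb: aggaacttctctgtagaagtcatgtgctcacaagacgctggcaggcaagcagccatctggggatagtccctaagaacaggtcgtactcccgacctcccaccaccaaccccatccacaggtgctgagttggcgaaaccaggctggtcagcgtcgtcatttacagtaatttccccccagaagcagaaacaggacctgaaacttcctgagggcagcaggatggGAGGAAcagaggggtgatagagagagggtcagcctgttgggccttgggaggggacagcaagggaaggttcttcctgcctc
C1qa was at 118, 118, 127, 162 and 99.6 CPM in vehicle mice 1 to 5 and at 388, 413, 224, 272 and 311 CPM in oxaliplatin mice 1 to 5. C1qb was at 110, 109, 116, 144 and 90.5 CPM with vehicle and at 307, 329, 186, 219 and 245 CPM with oxaliplatin. All treated mice were above all vehicle mice for both genes. The log2 fold change was 1.37 for C1qa (SE 0.17, adjusted p = 5.79e-05) and 1.17 for C1qb (SE 0.16, adjusted p = 1.19e-04), and the partner C1qc rose by 1.14 (SE 0.17, adjusted p = 2.12e-04).

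The chains did not keep an exact ratio. Per length, C1qa over C1qb was 1.14 ± 0.0205 in vehicle marrow (SD, n = 5, range 1.12 to 1.17) and 1.31 ± 0.0286 in oxaliplatin marrow (range 1.26 to 1.33), and the groups did not overlap. C1qc over C1qb was 0.779 ± 0.0402 and 0.754 ± 0.0364, with overlapping ranges. These ratios were computed after the levels had been seen and were not tested.

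Spic was the only member to fall in marrow. It encodes the transcription factor SPIC, which is induced by heme and needed for the iron-recycling macrophages of the spleen and for macrophages of the marrow. Vehicle mice 1 to 5 had 31.6, 33.4, 32.6, 37.3 and 26.0 CPM, and oxaliplatin mice 1 to 5 had 16.5, 19.9, 10.9, 12.8 and 17.5 CPM. No treated mouse reached the lowest vehicle mouse. On the log2 scale the change was -1.06 (SE 0.16, adjusted p = 2.21e-04), or 2.08-fold lower. The fall went with that of the erythroid genes listed above, whose part in it was not tested.

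The remaining 4 genes did not pass in marrow. Adgre1, which encodes the surface receptor F4/80 long used to identify mouse macrophages, was at 71.3 ± 6.51 CPM with vehicle and 81.9 ± 22.0 CPM with oxaliplatin (SD, n = 5 each), a log2 fold change of 0.20 (95% confidence interval -0.17 to 0.56, edgeR adjusted p = 0.405). Mertk, a receptor tyrosine kinase that binds apoptotic cells through the bridging proteins Gas6 and protein S, was at 85.3 ± 2.68 and 109 ± 28.8 CPM, a log2 fold change of 0.36 (0.00206 to 0.71, adjusted p = 0.116). In both genes treated mouse 3 was below every vehicle mouse, at 48.2 CPM for Adgre1 and 62.7 CPM for Mertk, while most other treated mice were above them. Without that mouse the log2 fold change was 0.34 for Adgre1 (adjusted p = 0.0191) and 0.50 for Mertk (adjusted p = 3.66e-04), both still under 1.5-fold.

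Cd163 encodes the scavenger receptor for hemoglobin. Its level in oxaliplatin mice 1 to 5 was 110, 98.4, 20.9, 31.0 and 65.5 CPM, which spans more than the whole vehicle range of 51.4 to 92.7 CPM on both sides. Its log2 fold change was -0.09 (-0.96 to 0.79, edgeR adjusted p = 0.892), and its sign turned to 0.057 with library size alone and ranged from -0.36 to 0.14 with a mouse left out, so no direction can be given. Cd5l encodes a secreted protein of the scavenger receptor family that protects macrophages from apoptosis. It was at 41.9, 86.1, 32.8, 21.5 and 44.2 CPM in oxaliplatin mice 1 to 5 against 42.5 to 73.6 CPM with vehicle, a log2 fold change of -0.45 (-1.13 to 0.22, adjusted p = 0.296). Mouse 2 held it up: without that mouse the log2 fold change was -0.82 with an adjusted p of 0.0123.

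The Cd5l promoter (chr3:87357631-87357930, plus strand, GRCm38.p6, RefSeq) is shown because it holds the only other match to the STAT6 palindrome, in capitals at position -250, in a gene that was not called while Retnla rose.
Cd5l: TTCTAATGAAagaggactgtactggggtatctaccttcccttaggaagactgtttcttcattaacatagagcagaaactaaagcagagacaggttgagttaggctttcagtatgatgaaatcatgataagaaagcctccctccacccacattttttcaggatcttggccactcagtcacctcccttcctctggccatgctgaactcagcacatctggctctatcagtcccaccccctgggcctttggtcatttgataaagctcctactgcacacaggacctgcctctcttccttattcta
None of the 7 member promoters held a core of interferon response elements (GAAA repeated after a gap of 2 bases, either strand), against 3.44% of all promoters. The RefSeq promoters matched Mrc1, Mertk, Cd5l, C1qb, Cd163, Spic and Retnla, and the table used had no entry for Adgre1, Siglec1 or C1qa.

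The treated marrows differed among themselves in the same way for most members. Oxaliplatin mouse 3 was the lowest of its group in 9 of the 10 genes, all but Cd5l, and its members summed to 936 CPM against 1572 to 2358 CPM in the other 4. The same mouse had the lowest treated sums of the 18 general macrophage genes (3908 CPM) and of the 11 neutrophil genes (9742 CPM). In the vehicle group mouse 4 was the highest in 8 genes and mouse 5 the lowest in 8. The coefficient of variation was larger with oxaliplatin than with vehicle in all 10 genes in marrow, from 3.14% to 26.4% for Mertk and from 22.0% to 60.5% for Cd163. These orders describe 5 mice a group and were not tested. Without oxaliplatin mouse 3 the 6 called genes were called again, with log2 fold changes of 5.48 for Retnla, 1.82 for Siglec1, 1.68 for Mrc1, 1.47 for C1qa, 1.27 for C1qb and -0.95 for Spic.

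The genes closest to each member over the 10 marrow libraries were ranked by the root mean square difference of log2 CPM after subtracting each gene's mean, among 12556 protein-coding genes. C1qb lay closest to C1qc (0.0677) and then to C1qa (0.0986), and C1qa was nearly as close to Ctsl, which encodes the lysosomal protease cathepsin L (0.104). Mertk lay closest to Slc11a1 (0.0968), which encodes a metal transporter of the phagosome. Siglec1 lay closest to Fgfr2 (0.199) and to Fcgrt (0.223), which encodes the neonatal Fc receptor, and Mrc1 to Stard8 (0.245) and Siglec1 (0.258). Adgre1 lay closest to Arl4c (0.113) and Spic to Ccndbp1 (0.122) and Ucp2 (0.123). The partners of Cd5l (0.262 for 4921507P07Rik), of Cd163 (0.292 for Tmem45a2) and of Retnla (0.467 for Cyp26b1) were more distant. All pairs share the same libraries and the same treatment difference.

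In kidney, Siglec1 and Mrc1 rose, and Adgre1, C1qa and C1qb fell, by edgeR's quasi-likelihood test at the same thresholds. These are 5 of the 6 members that passed the filter on low counts, and Siglec1, with 8 to 16 counts per vehicle kidney, passed it only through the treated group. With at least 10 counts asked of every library, Siglec1 was not tested and 4 members were called, 1 higher and 3 lower. These thresholds called 11.5% of the 19293 genes tested in kidney, with 7.68% higher and 3.81% lower. The groups did not overlap in Siglec1, Adgre1, C1qa, C1qb and Mertk, against 20.7% of all genes tested.

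**Figure D2:**
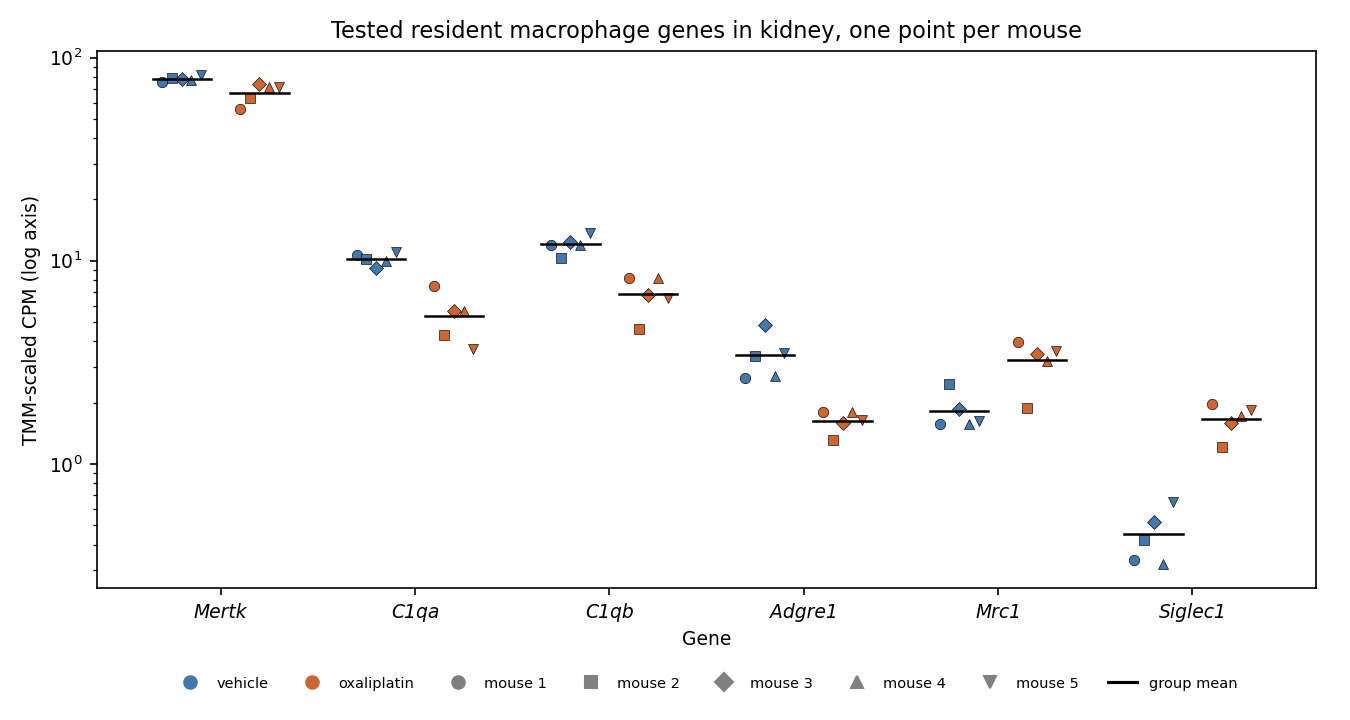
Level of the 6 genes tested in kidney in TMM-scaled CPM on a log axis, 1 point per mouse with its shape giving the mouse number, blue for vehicle and orange for oxaliplatin, with black lines for group means (n = 5 per group). Siglec1 separates upward, and C1qa, C1qb and Adgre1 separate downward. Mertk lies slightly lower in all 5 treated mice, and Mrc1 overlaps through oxaliplatin mouse 2. Siglec1 passed the filter on low counts only through the treated group.

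Siglec1 was at 0.336, 0.419, 0.518, 0.322 and 0.648 CPM in vehicle kidneys 1 to 5 and at 1.97, 1.21, 1.58, 1.72 and 1.83 CPM in oxaliplatin kidneys 1 to 5. Every treated kidney was above every vehicle kidney, on between 8 and 61 counts per library. The gene passed the filter on low counts only through the treated group. On the log2 scale the change was 1.89 (SE 0.28, adjusted p = 9.85e-05), or 3.69-fold.

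Mrc1 was at 1.57, 2.48, 1.86, 1.57 and 1.62 CPM in vehicle kidneys and at 3.98, 1.89, 3.49, 3.19 and 3.60 CPM in oxaliplatin kidneys. Mouse 2 of the vehicle group was the highest there and mouse 2 of the treated group the lowest, and these 2 made the groups overlap. Its log2 fold change was 0.83 (SE 0.22, adjusted p = 0.00813), or 1.77-fold.

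Adgre1 fell in kidney. It was at 2.65, 3.39, 4.84, 2.70 and 3.52 CPM in vehicle kidneys 1 to 5 and at 1.79, 1.31, 1.58, 1.79 and 1.65 CPM in oxaliplatin kidneys 1 to 5. The groups did not overlap, and the vehicle kidneys were the more variable. On the log2 scale the change was -1.07 (SE 0.20, adjusted p = 7.28e-04), or 2.10-fold lower.

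The complement chains fell together in kidney. C1qa was at 10.6, 10.1, 9.24, 9.94 and 11.0 CPM with vehicle and at 7.54, 4.31, 5.64, 5.65 and 3.66 CPM with oxaliplatin. C1qb was at 12.0 ± 1.24 CPM with vehicle and 6.88 ± 1.49 CPM with oxaliplatin (SD, n = 5). All treated kidneys were below all vehicle kidneys for both. Its log2 fold change was -0.93 for C1qa (SE 0.16, adjusted p = 3.56e-04), -0.81 for C1qb (SE 0.14, adjusted p = 4.66e-04) and -0.96 for C1qc (SE 0.14, adjusted p = 8.23e-05). C1qa over C1qb per length was 0.892 ± 0.0968 with vehicle and 0.822 ± 0.166 with oxaliplatin, with overlapping ranges.

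Mertk was at 76.1, 79.2, 78.3, 77.6 and 81.8 CPM in vehicle kidneys and at 55.8, 63.1, 73.7, 71.6 and 71.7 CPM in oxaliplatin kidneys. No treated kidney reached the lowest vehicle kidney, but the log2 fold change of -0.23 (SE 0.07, adjusted p = 0.0293) was under 1.5-fold and so was not called. The 4 members left untested had 4 to 24 counts per kidney (Cd163), 0 to 11 (Cd5l), 0 to 10 (Retnla) and 0 to 2 (Spic). Cd163 stood at 0.152 to 0.604 CPM with vehicle and 0.211 to 0.720 CPM with oxaliplatin, and Retnla at 0 to 0.259 and 0 to 0.360 CPM, with overlapping groups in both genes.

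The 2 tissues were compared by the interaction of tissue and treatment in all 20 libraries, which asks whether the log2 fold change in marrow minus that in kidney differs from 0. It was called at an edgeR adjusted p under 0.05 in 5 of the 10 members, all with the larger value in marrow. Of the 24321 genes tested, 30.1% were called, and 17.0% were called with the larger value in marrow. Among the 5 members is Retnla, which entered the joint fit through its marrow counts, with 0 to 10 counts per kidney. Its call was lost without vehicle kidney 2 or vehicle kidney 3. C1qa (2.35, SE 0.23, adjusted p = 1.21e-07) and C1qb (2.04, SE 0.21, adjusted p = 2.38e-07) went up in marrow and down in kidney. Adgre1 differed by 1.32 (SE 0.24, adjusted p = 2.72e-04) and Mertk by 0.63 (SE 0.18, adjusted p = 0.00923), in each case without a called change in marrow.

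Siglec1 and Mrc1 were called higher in both tissues, though Siglec1 passed the kidney filter on low counts only through the treated group. A difference between the tissues was not shown: -0.21 for Siglec1 (95% confidence interval -1.02 to 0.60, edgeR adjusted p = 0.739) and 0.69 for Mrc1 (-0.09 to 1.47, adjusted p = 0.175). Both intervals are wide enough to hold differences of more than 1.5-fold, and without oxaliplatin marrow 3 the Mrc1 difference was 0.88 (adjusted p = 0.0156). Retnla differed by 4.24 (SE 1.18, adjusted p = 0.00904) on 0 to 10 kidney counts, and the adjusted p was 0.0556 without vehicle kidney 2 and 0.0579 without vehicle kidney 3. Cd163 did not pass, and no difference is given for Spic and Cd5l, whose vehicle kidneys were under the floor of 3 counts.

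**Figure D3:**
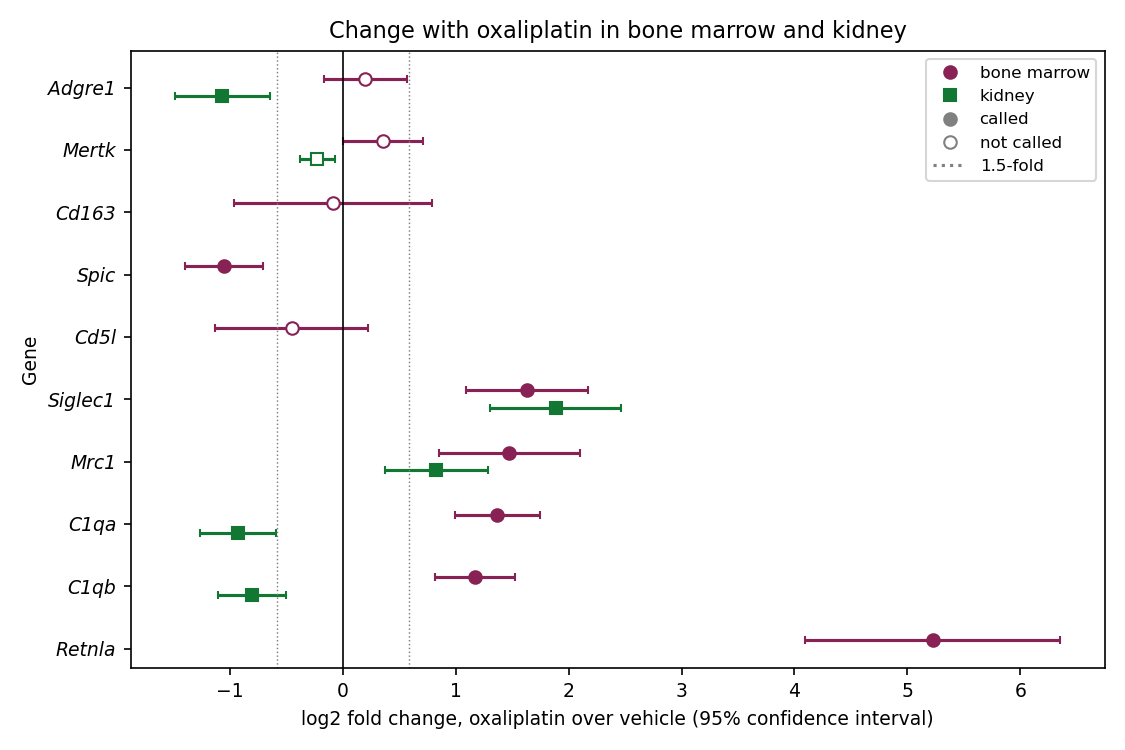
Log2 fold change of oxaliplatin over vehicle for each gene in bone marrow (purple circles) and kidney (green squares), with 95% confidence intervals as bars, filled where called, and dotted lines at 1.5-fold either way; Cd163, Spic, Cd5l and Retnla were not tested in kidney. Siglec1 and Mrc1 lie to the right in both tissues, and C1qa and C1qb lie to the right in marrow (1.37 and 1.17) and to the left in kidney (-0.93 and -0.81). In kidney Siglec1 passed the filter on low counts only through the treated group.

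Other genes of the macrophage pathways were counted in lists that hold none of the 10. The counts below stand beside 23.3% of all tested genes called in marrow and 11.5% in kidney. Of 17 general macrophage genes tested in marrow, 8 rose and 2 fell, with a median log2 fold change of 0.55. Apoe, which encodes a lipid carrier, rose from 657 ± 57.8 to 1968 ± 573 CPM (log2 fold change 1.58), Msr1, a scavenger receptor, by 1.57 and Maf, a transcription factor of resident macrophages, by 1.27. Timd4, a receptor for phosphatidylserine on long-lived macrophages, fell from 6.04 ± 2.90 to 0.798 ± 0.528 CPM (-2.94, edgeR adjusted p = 4.3e-04). Marco, a scavenger receptor, had a log2 fold change of -2.69 that rested on vehicle mouse 3 at 11.4 CPM. Without that mouse it was -1.01 (adjusted p = 0.162), and it was not called either without any of oxaliplatin mice 1, 3, 4 and 5 (adjusted p from 0.0622 to 0.11).

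In kidney, 13 genes of that list were tested, of which 2 rose and 6 fell, with a median of -0.33. Csf1r, the receptor on which most macrophages depend, fell from 80.6 ± 8.63 to 43.6 ± 7.59 CPM (-0.89), and its ligand Il34 from 23.5 ± 4.38 to 8.87 ± 0.810 CPM (-1.41). Fcgr1 and Aif1 fell by 1.23 and 0.89 on the log2 scale, and Trem2 and Lyz2 rose by 1.91 and 0.82. Trem2 was not called without any of vehicle mice 1, 3 and 4 or oxaliplatin mice 1 and 4 (adjusted p from 0.0526 to 0.0635), Fcgr1 without vehicle mice 1 and 5 or oxaliplatin mice 2, 3 and 5 (0.0529 to 0.0863), and Aif1 without vehicle mice 3, 4 and 5 or oxaliplatin mice 1, 2, 4 and 5 (0.0511 to 0.153), each mouse left out alone.

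Among the genes of apoptotic cell uptake, the pathway of Mertk, 7 of 17 rose and 1 fell in marrow (median 0.51), and 2 of 16 rose and 1 fell in kidney (median 0.42). The Mertk relative Tyro3 rose in marrow from 0.827 ± 0.355 to 6.16 ± 3.97 CPM (2.89), the adaptor Gulp1 by 2.16 and Mfge8, which bridges apoptotic cells to integrins, by 1.75. In kidney Stab2 and Pros1, the gene of protein S, rose by 0.87 and 0.84, and Cd36, a fatty acid and oxidized lipid receptor also made by vessels and tubules, fell by 1.25 on the log2 scale.

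Among the genes of red cell clearance and iron recycling, to which Cd163 and Spic relate, 2 of 15 rose and 1 fell in marrow (median 0.10), near the 23.3% called among all genes: the hemoglobin carrier Hp rose by 1.35 and the heme carrier Hpx by 2.03 from 2 to 10 counts, and Blvrb, a biliverdin reductase abundant in red cells, fell by 1.48 on the log2 scale. In kidney 1 of 15 rose, Hp, by 2.67.

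Of the 10 classical complement genes, 3 rose in marrow (median 0.36) and 5 rose and 1 fell in kidney (median 0.86). The share in marrow is near the 23.3% called among all genes there, and 11.5% were called in kidney. C4b, the gene of complement component 4, rose in marrow from 82.0 ± 13.1 to 365 ± 126 CPM (2.15), together with C1qc and the inhibitor Serping1 (0.99). In kidney C1qc fell, while C3 rose from 10.8 ± 1.98 to 76.0 ± 33.0 CPM (2.81). Serping1 rose by 1.48 and C1s1, the gene of a protease of the classical pathway, by 1.16. The chains of C1q thus moved the other way from C3, Serping1 and C1s1 in kidney.

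Among the genes of alternative activation, the group to which Retnla and Mrc1 are often assigned, 3 of 14 rose and 1 fell in marrow (median 0.55). That share is near the 23.3% called among all genes in marrow. Clec10a, a lectin for galactose-type sugars on macrophages and dendritic cells, rose from 10.4 ± 2.44 to 211.9 ± 100.8 CPM (4.34, SE 0.38). Il4ra, the interleukin 4 receptor, rose by 0.66, Ccl24 by 2.20 from 0 to 10 counts, and Cd209a fell by 1.35 on the log2 scale. Single mice decided these last 3 calls: Il4ra was lost without vehicle mouse 1 (0.61, adjusted p = 0.0541) or oxaliplatin mouse 1 (0.51, under 1.5-fold), Ccl24 without vehicle mouse 3 or oxaliplatin mouse 4 (adjusted p = 0.0542 and 0.0568), and Cd209a without vehicle mouse 2 or oxaliplatin mouse 2 (adjusted p = 0.0584 and 0.0515). In kidney none of the 6 genes tested was called.

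**Figure D4:**
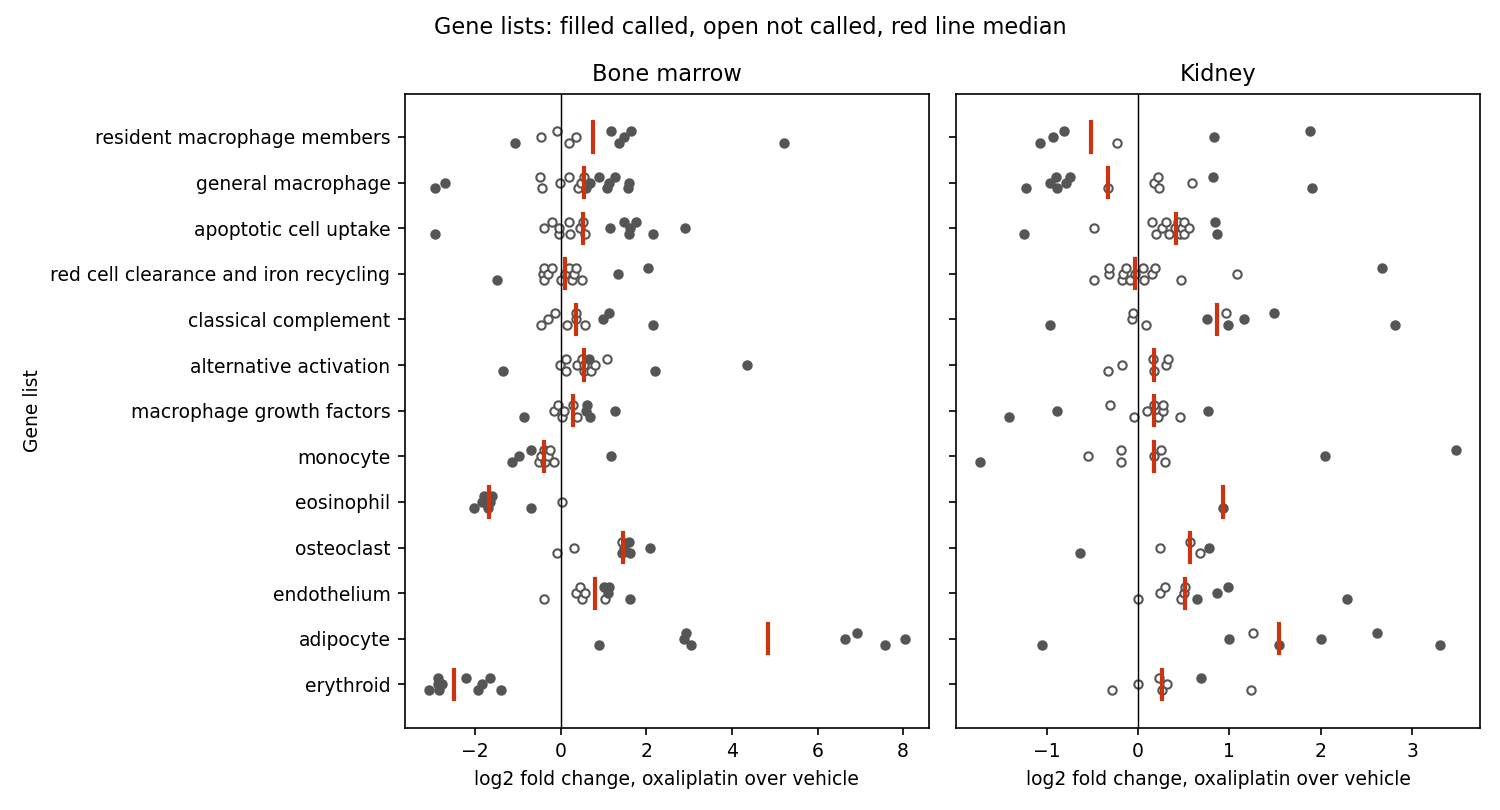
Log2 fold change of oxaliplatin over vehicle for the genes of each list in bone marrow (left) and kidney (right), 1 circle per tested gene, filled where called and open where not, with a red line at the list's median; vertical scatter within a list only separates the circles, and the axes of the panels differ. In marrow the 10 resident macrophage genes have a median of 0.76, erythroid genes lie to the left and adipocyte genes to the right, and in kidney the 6 members tested split to both sides of 0.

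Of the genes of macrophage growth and identity, 4 of 11 rose in marrow (median 0.28), among them Maf (1.27) and Csf1 (0.60), and Irf8, a factor of monocytes and dendritic cells, fell from 214 ± 6.60 to 117 ± 7.32 CPM (-0.86). In kidney 1 of 11 rose and 2 fell (median 0.18). In marrow Csf1 fell under 1.5-fold without vehicle mouse 1 or 2 or oxaliplatin mouse 1 or 4 (log2 fold change from 0.45 to 0.58).

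Markers of other cells moved as well. In marrow 1 of 11 monocyte genes rose, F13a1 (1.18), and 3 fell, 7 of 8 eosinophil genes fell, and 3 of 8 dendritic cell genes fell. Osteoclast genes rose in 5 of 8 (median 1.45) and endothelial genes in 4 of 10 (sum 555 to 656 CPM with vehicle, 796 to 1407 CPM with oxaliplatin). No neutrophil gene of 11 was called. Of the B cell and proliferation lists, 5 of 7 and 5 of 6 fell, and 4 of 6 muscle genes rose, from a sum of 9.51 to 93.6 CPM to one of 39.7 to 709 CPM. Some calls were lost with a single mouse left out. These were the rises of the muscle genes Acta1 (edgeR adjusted p up to 0.151), Ckm and Tnnt3. The falls of the monocyte gene Ms4a4c and the dendritic cell gene Clec9a were also lost in this way. None of the genes of these lists was at 0 in every marrow library. In kidney, where no neutrophil gene had enough counts to be tested and the eosinophil genes Ear1 and Ear6 were at 0 in every library, 2 of 9 monocyte genes rose and 1 fell. Among these F13a1 rose from 0.176 ± 0.133 to 2.00 ± 0.868 CPM. Its vehicle level was near the floor of 3 counts, and it passed the filter on low counts only through the treated group. Nr4a1 also rose, but lost its call whichever of the 5 vehicle mice was left out (edgeR adjusted p from 0.0512 to 0.0687). Ace, also made by tubules, fell from 499.5 ± 53.2 to 151 ± 37.0 CPM. The sum of the list, most of it Ace, was 456 to 601 CPM with vehicle and 167 to 269 CPM with oxaliplatin. The median log2 fold change of the list was 0.18. Adipocyte genes rose in 5 of 7 and fell in 1 (median 1.55), with Adipoq at 0.558 ± 0.600 and 3.51 ± 1.77 CPM, while their sum was 301 to 534 CPM with vehicle and 230 to 368 CPM with oxaliplatin. Endothelial genes rose in 4 of 10 and proliferation genes in 3 of 5. The part of these cells in the changes of the members was not tested.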

How the data were processed

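Reads were aligned by the authors with STAR (Ensembl release 101, GRCm38), who deposited 1 table per tissue of raw counts per gene, from uniquely aligned, unambiguous reads. The submitters' processing notes also name Subread and Salmon, and the library chemistry is given in 2 ways, as SMARTer cDNA and as ribosomal RNA removal with random hexamers. Strand use is not given in the sources used here. Of 55774 lines, those repeating an identifier and 1 lacking a value were dropped, and 55486 genes remained. The members and lists were chosen with earlier results of these data known.

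Each tissue was filtered with filterByExpr (minimum count 10), scaled by TMM and fitted on treatment alone in edgeR 4.0.16 (limma 3.58.1, R 4.3.3), whose robust quasi-likelihood test was used two-sided, 5 mice a group. P-values were adjusted over all tested genes by the Benjamini-Hochberg method, and a gene was called under 0.05 and beyond 1.5-fold. The interaction and the vehicle tissues were fitted over all 20 libraries. The interaction had no fold threshold. Levels per kilobase used the union of exons of GENCODE M21. A floor of 3 counts corresponds to 0.0668 to 0.0975 CPM in marrow and 0.0900 to 0.130 CPM in kidney, for counting error only. No 2 libraries of a group agreed within sampling noise (lowest chi-square per degree of freedom 7.51).

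Named were all members, C1qc, up to 3 largest called rises and falls of each list per tissue, and the 2 nearest genes of each member; others were named after their values were seen, and 1 list gene that the rule names is not reported here. Same-numbered mice of the 2 treatments were not paired: their deviations from the group means correlated from -0.118 to 0.228 in marrow and from -0.154 to 0.0754 in kidney. Whether same-numbered marrow and kidney came from 1 mouse is not stated in the sources used here. Their deviations correlated from -0.0938 to 0.206, and the 20 libraries were fitted as independent. In the fits over both tissues the replicate block was the mouse number within treatment. Alternatives were DESeq2 1.42.0, its size factors, library size alone, hemoglobin genes left out, other filters, other fold thresholds, a Y-linked gene covariate, a replicate block, and each mouse left out. The steps were tested on simulated counts. Promoters, 250 bases before to 50 after the start, came from RefSeq. Figures used Python 3.11.15 and matplotlib 3.10.9.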

Additional observations from a re-analysis of the deposited data

Results flagged for a closer look

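The change with oxaliplatin differed between marrow and kidney, by edgeR's test of the interaction of tissue and treatment, in 5 members. As log2 fold change in marrow minus that in kidney, the difference was 2.35 for C1qa (adjusted p = 1.21e-07), 2.04 for C1qb (adjusted p = 2.38e-07), 1.32 for Adgre1 (adjusted p = 2.72e-04), 0.63 for Mertk (adjusted p = 0.00923) and 4.24 for Retnla (adjusted p = 0.00904). C1qa and C1qb were called in both tissues with opposite signs, Adgre1 was called in kidney alone, Mertk in neither tissue, and Retnla had too few kidney counts for a test within that tissue. Retnla entered the joint fit through its marrow counts, with 0 to 10 counts per kidney. Its call was lost without vehicle kidney 2 (adjusted p = 0.0556) or vehicle kidney 3 (adjusted p = 0.0579). No lone high or low sample was flagged in 37 groups of 5 member values by Dixon's ratio, at a critical value of 0.71. With 5 values, gene by gene, this check finds only extreme samples and cannot exclude a mouse that differs across genes. Oxaliplatin marrow 3 was the lowest of its group in 9 of the 10 members.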

How the results depend on the processing

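In marrow 6 members were called under every alternative apart from 7 without oxaliplatin mouse 2, which added Cd5l and raised the members called lower to 2 (range 1 to 2). Cd163, never called, changed sign to 0.057 with library size alone and ranged from -0.36 to 0.14 with a mouse left out, at 0.04, 0.14 and 0.09 without vehicle mouse 4, oxaliplatin mouse 3 and oxaliplatin mouse 4. In kidney the members called were 2 beyond 2-fold (1 higher, 1 lower) and 1 in a test against 1.5-fold (1 higher, 0 lower). The higher member in both was Siglec1, which passed the filter on low counts only through the treated group. With 10 counts in every library Siglec1 was not tested and 1 member was called higher. For the interaction, 4 to 6 were called with a mouse left out, with 1 called lower without oxaliplatin mouse 2 or by DESeq2 (Cd5l, on 0 to 2 counts per vehicle kidney, under the floor, so that nothing is read from it), and Mrc1 was added without oxaliplatin mouse 3 (0.88, adjusted p = 0.0156). Between vehicle tissues Mertk was higher in kidney with no fold threshold (1 member) and -0.11 with library size alone.

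All genes called were 3231 beyond 2-fold and 2730 against 1.5-fold in marrow (5221 as reported), and 941, 454 and, with no threshold, 5679 in kidney (2216 as reported). With library size alone the median log2 fold change of all genes was 0.11 in marrow and 0.16 in kidney, and 63.4% and 82.7% of called genes were higher, against 49.6% and 66.8% with TMM. The replicate block left 6 members called in marrow, 5 in kidney and 5 for the interaction, and changed no member's call. The causes were not tested. Kidney members other than Mertk rest on few counts, which limits small changes.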
